A study of Mus musculus with 12 samples.

Results

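The annexins are calcium-dependent proteins that bind acidic phospholipids on the inner face of membranes, and 8 of them were followed here in mouse embryonic stem cells depleted of Krr1. The members were the rows named Anxa1, Anxa2, Anxa3, Anxa4, Anxa5, Anxa6, Anxa7 and Anxa11, which were 8 of the 23420 gene symbols in both count tables, and all 8 passed the filter on low counts. R1 embryonic stem cells, kept on gelatin with LIF, received 3 siRNAs to Krr1, whose product helps to build small ribosomal subunits, or 3 controls for 48 h. The knockdown lysates are called siKrr1 A, siKrr1 C and siKrr1 D, after the letters in the deposited tables. The control lysates are called siGFP, siNC and Lipo, and the name Lipo states no siRNA although the labels speak of 3 control siRNAs. From each of the 6 lysates came an RNA-seq library and a ribosome profiling library, the reads of which are mRNA pieces shielded by ribosomes (footprints). This gave 12 libraries, 3 per condition and assay. The labels do not say whether the lysates came from separate cultures, so the p-values measure only the spread between these samples.

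Annexins share a conserved core of repeats that holds the calcium and lipid sites, and differ in the tail that precedes it. The tail binds partners, several of them small calcium-binding proteins of the S100 family. Through these contacts annexins link membranes to the actin cytoskeleton, help to seal torn plasma membrane and take part in vesicle traffic. Anxa5 binds phosphatidylserine so tightly that the labelled protein is a standard probe for dying cells.

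Reads on genes numbered 31318772 to 39670139 per RNA library and 21615934 to 28911254 per footprint library. Values are counts scaled to the reads on genes of each library after TMM normalization (CPM), which are relative to the other RNAs of a library, and in a mixed culture fewer cells of a type and less RNA per cell cannot be told apart. Krr1 itself had RNA at 33.7, 58 and 64.6 CPM in siKrr1 A, C and D, against 155, 151 and 160 CPM in siGFP, siNC and Lipo. It fell by 1.58 ± 0.18 (SE, log2) in RNA and by 1.77 ± 0.18 in footprints (edgeR adjusted p = 0.00228 and 0.000819). Stem cell markers were abundant in every library, with a summed RNA level of 6361 to 7627 CPM in knockdown cells and 7944 to 8059 CPM in controls for 8 genes, of which Nanog, Esrrb and Zfp42 fell, Nanog also with each lysate left out and the other pair in 2 of those 6 fits. In footprints the same genes summed to 4852 to 5580 CPM in knockdown cells and 6151 to 6225 CPM in controls, and Nanog and Esrrb fell. In RNA, 10 fibroblast markers summed to 10.2 to 15.4 CPM in knockdown cells and 13.1 to 14.6 CPM in controls, with Col3a1, Postn and Lum at 0 counts in every library. Markers of primitive or visceral endoderm (10 genes) summed to 4.5 to 5.12 CPM in knockdown cells and 4.95 to 6.06 CPM in controls, with Ttr at 0. Leukocyte markers (8 genes) summed to 8.58 to 13.4 CPM in knockdown cells and 12.8 to 15.5 CPM in controls, with Lyz2 at 0. Trophectoderm markers (9 genes) summed to 38.1 to 44.7 CPM in knockdown cells and 40.4 to 41.5 CPM in controls in RNA, and to 54.3 to 64.7 CPM in knockdown cells and 47.5 to 56 CPM in controls in footprints. In each assay 7 trophectoderm genes were tested, without Elf5 and Gata3 in RNA and without Elf5 and Krt7 in footprints. The median log2 fold change of the genes tested was 0.46 in RNA and 0.80 in footprints. Of these Krt7 and Krt18 rose in RNA, with 0 to 1 of the list called once a lysate was left out. In footprints Gata3 was called higher and Eomes lower, with 0 to 3 of the list called once a lysate was left out, and the leukocyte gene Cd68 fell, with 0 to 1 of that list then called. Leukocyte footprints summed to 12 to 18.7 CPM in knockdown cells and 19.7 to 24.5 CPM in controls, with 2 of the 8 genes tested. Fibroblast and endoderm sums overlapped there. Over all genes, 2.69% were called higher and 2.11% lower in RNA, and 3.39% and 2.68% in footprints. The part of the marker genes in the annexin values was not tested.

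Of the 8 annexins, Anxa3 and Anxa2 rose in RNA and Anxa3, Anxa2 and Anxa11 rose in footprints, while none was called lower. A call is an adjusted p under 0.05 in the edgeR quasi-likelihood test with Benjamini-Hochberg adjustment over all genes. That made 2 of 8 higher in RNA, where 2.69% of 14038 tested genes were higher, and 3 of 8 higher in footprints, where 3.39% of 13287 were. For the count of 0 lower, 2.11% of all genes were lower in RNA and 2.68% in footprints. In either direction, 4.8% of genes were called in RNA and 6.07% in footprints. The annexins were chosen with earlier results of these data known, so these shares describe the family and do not test it. Before adjustment, 3 annexins were higher and 1 lower in RNA at p under 0.05, where 20.9% of genes passed in either direction, and 3 were higher and 0 lower in footprints, where 22.5% passed. DESeq2 called 2 annexins higher and 0 lower in RNA, and 3 higher and 0 lower in footprints. In RNA 3 of 8 lay above all controls and 1 below, against 13.6% and 13.4% of all genes (27% without overlap in all). For footprints 3 of 8 lay above all controls and 0 below, against 14.3% and 13.6% of all genes (27.9% in all). The median log2 fold change of the 8 was 0.23 in RNA and 0.15 in footprints, against -0.00 and 0.01 over all genes tested. The spread within the family was wide, from -0.18 (Anxa7) to 1.47 (Anxa3) in RNA and from -0.21 (Anxa5) to 1.39 (Anxa3) in footprints.

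**Figure D1:**
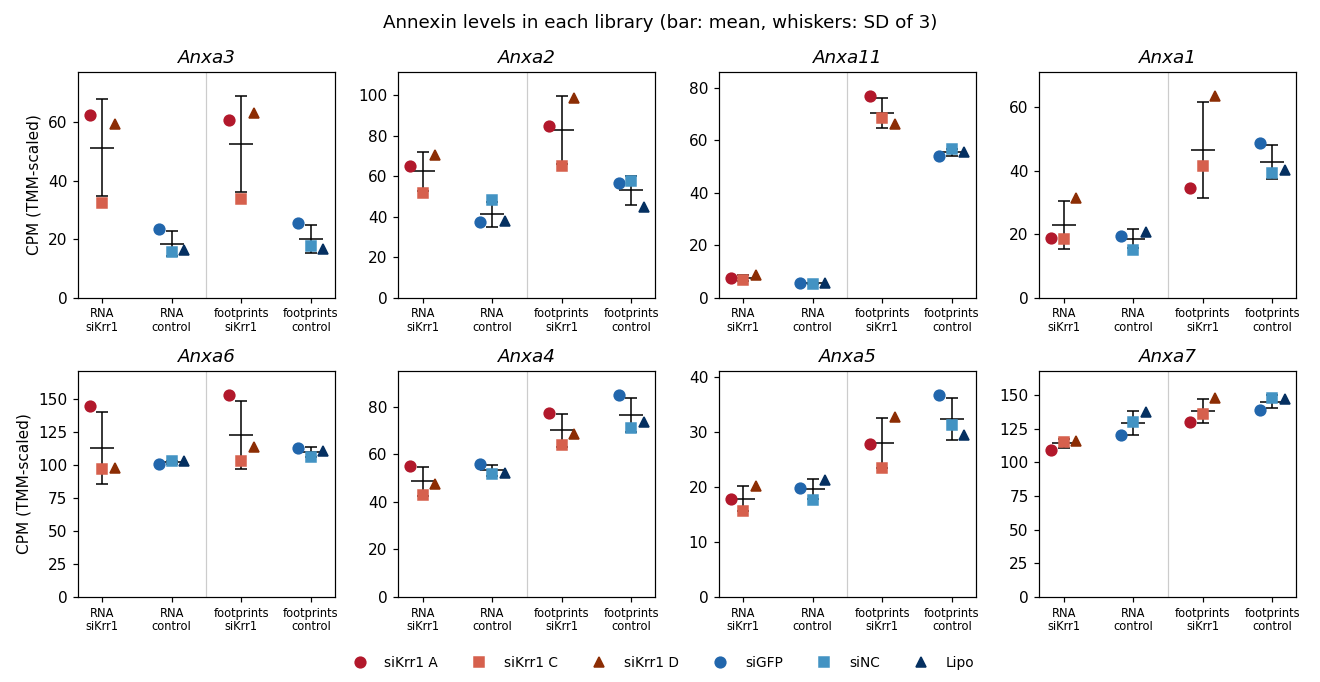
Level of each annexin in every library (vertical axis, CPM) for siKrr1 and control lysates in RNA (left of the grey line) and footprints (right); points are single libraries, the bar is the mean and the whiskers the SD of 3. Anxa3 lies at 32.4 to 62.4 CPM in siKrr1 RNA, above the control range of 15.7 to 23.4 CPM, whereas Anxa4 and Anxa5 overlap between the groups.

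Of the 3 annexins that rose, the promoters of Anxa2 and Anxa11 are shown as the 250 bases before the start in the RefSeq promoter table on GRCm38.p6 (for Anxa11 a start that lies inside the gene's span), 5′ to 3′ on the gene's own strand, beside that of Anxa1, which was not called. RefSeq entries matched 6 of the 8 members, without Anxa3 and Anxa6. Capitals mark matches on either strand to a TATA box (TATAAA), a GC box (GGGCGG), an AP-1 motif (TGANTCA), a TEAD motif (GGAATG) or a CArG box.
Anxa2, chr9:69453433-69453682, plus strand: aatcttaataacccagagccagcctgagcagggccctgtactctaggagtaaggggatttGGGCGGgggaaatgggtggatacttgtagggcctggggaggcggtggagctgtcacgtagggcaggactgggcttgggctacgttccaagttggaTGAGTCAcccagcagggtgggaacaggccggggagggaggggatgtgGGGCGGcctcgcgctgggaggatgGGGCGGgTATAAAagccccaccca
Anxa11, chr14:25841905-25842154, plus strand: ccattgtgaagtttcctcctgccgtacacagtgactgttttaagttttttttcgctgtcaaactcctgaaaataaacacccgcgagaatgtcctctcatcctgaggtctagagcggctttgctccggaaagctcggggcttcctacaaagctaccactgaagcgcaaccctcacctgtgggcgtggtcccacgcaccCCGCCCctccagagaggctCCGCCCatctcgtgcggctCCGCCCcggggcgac
Anxa1, chr19:20390672-20390921, minus strand: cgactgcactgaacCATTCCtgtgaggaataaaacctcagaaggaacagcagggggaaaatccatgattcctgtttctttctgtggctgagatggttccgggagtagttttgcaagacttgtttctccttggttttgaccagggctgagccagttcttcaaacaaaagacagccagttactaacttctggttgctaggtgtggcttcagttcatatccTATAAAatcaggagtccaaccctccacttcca

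The 3 windows differed in their motifs. Anxa2 held a TATA box 17 bases before the start, 3 GC boxes and 1 AP-1 motif 95 bases before it. Anxa11 held 3 GC boxes on the minus strand and none of the other motifs, and Anxa1 held a TATA box and a TEAD motif. Of the other annexins that were not called, Anxa7 held 1 and 4 GC boxes in its 2 entries and, like Anxa11, none of the other motifs. The 2 Anxa7 windows overlap, and the box of the first is among the 4 of the second. Anxa4 and Anxa5 held no match to any of the motifs. Over 32851 RefSeq promoter windows of the same length, 12.4% held the TATA letters, 32.7% the GC box, 6.75% the AP-1 motif, 12.6% the TEAD motif and 1.47% a CArG box. These matches are descriptions of the sequence and not binding sites.

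Anxa3 (chromosome 5, 96793385 to 96845968, GRCm38.p6), an annexin abundant in human neutrophils, showed the largest change of the 8 in both assays. Its RNA was at 62.4, 32.4 and 59.5 CPM in siKrr1 A, C and D, against 23.4, 15.7 and 16.5 CPM in siGFP, siNC and Lipo. Its footprints were at 60.7, 33.7 and 63.3 CPM in siKrr1 A, C and D, against 25.7, 17.8 and 16.8 CPM in siGFP, siNC and Lipo. All knockdown libraries lay above all controls, siKrr1 C was the lowest knockdown and siGFP the highest control in each assay. The RNA of Anxa3 was higher by 1.47 ± 0.23 (log2, SE; edgeR adjusted p = 0.00799) and its footprints by 1.39 ± 0.22 (edgeR adjusted p = 0.00641), which corresponds to 2.77-fold and 2.63-fold. The RNA call held with each lysate left out in turn, with a log2 fold change of 1.31 without siKrr1 A to 1.72 without siKrr1 C. The footprint call held in 5 of these 6 fits and was lost without Lipo, where the log2 fold change was 1.28 (edgeR adjusted p = 0.0519).

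Anxa2 (chromosome 9, 69453683 to 69491792) forms a complex with S100a10 that binds plasminogen at the cell surface and actin beneath it. Anxa2 RNA was at 64.9, 51.6 and 70.5 CPM in siKrr1 A, C and D, against 37.5, 48.3 and 37.9 CPM in siGFP, siNC and Lipo. Its footprints were at 84.7, 65 and 98.4 CPM in siKrr1 A, C and D, against 56.4, 57.8 and 45 CPM in siGFP, siNC and Lipo. The groups did not overlap, but siKrr1 C stood only a little above the highest control, siNC, in both assays. Anxa2 rose by 0.60 ± 0.13 (log2, SE) in RNA (edgeR adjusted p = 0.0271) and by 0.64 ± 0.14 in footprints (edgeR adjusted p = 0.0232). In RNA the call was lost without siKrr1 A (edgeR adjusted p = 0.0768), siKrr1 D (0.0794), siGFP (0.132) or Lipo (0.12). In footprints it was lost without siKrr1 D (edgeR adjusted p = 0.0659), siGFP (0.0799), siNC (0.0606) or Lipo (0.119). With each lysate left out, the log2 fold change of Anxa2 ran from 0.51 to 0.73 in RNA and from 0.50 to 0.79 in footprints. The RefSeq table lists 1 Anxa2 pseudogene, Gm41080, which has no row in the count tables, and whether its reads enter the Anxa2 row was not tested.

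Anxa11 (chromosome 14, 25842127 to 25886804) has a long disordered tail, binds S100a6 and Pdcd6, and tethers RNA granules to lysosomes. In footprints it was at 76.8, 68.3 and 66 CPM in siKrr1 A, C and D, against 54, 56.6 and 55.5 CPM in siGFP, siNC and Lipo. In RNA it was at 7.39, 6.57 and 8.58 CPM in siKrr1 A, C and D, against 5.77, 5.36 and 5.64 CPM in siGFP, siNC and Lipo. All knockdown libraries lay above all controls in both assays, and siKrr1 D was the highest in RNA but the lowest knockdown in footprints. Its log2 fold change was 0.34 ± 0.07 (SE) in footprints (edgeR adjusted p = 0.0222) and 0.43 ± 0.15 in RNA, which did not pass (edgeR adjusted p = 0.126). The RNA rests on 200 to 325 reads per library and the footprints on 1190 to 1950. A single fit over all 12 libraries called the RNA as well (edgeR adjusted p = 0.027). The footprint call was lost without siGFP (edgeR adjusted p = 0.0949), siNC (0.0804) or Lipo (0.11). The log2 fold change in these fits was 0.33, 0.36 and 0.35. Over all genes, 130, 106 and 67 were then called higher in footprints, against 450 with all lysates.

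**Figure D2:**
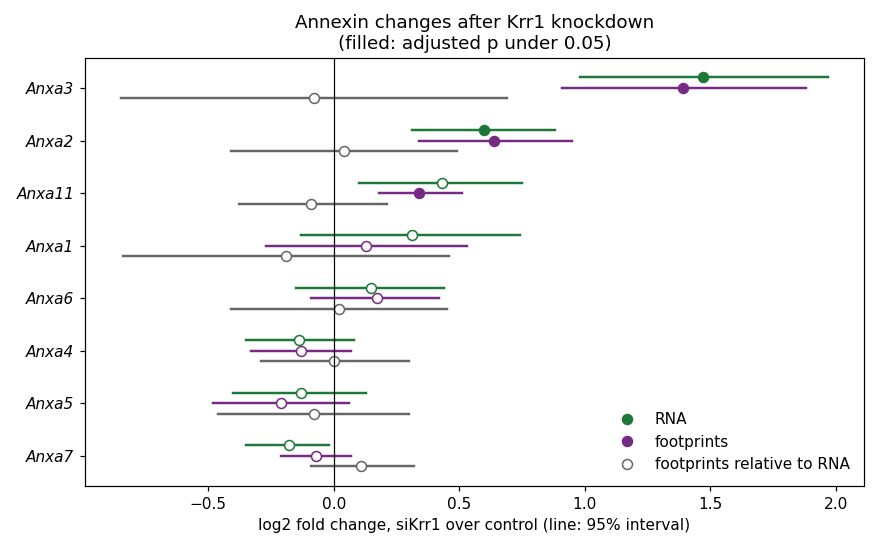
Log2 fold change of siKrr1 over control (horizontal axis) for each annexin in RNA, in footprints and in footprints relative to RNA; lines are 95% intervals, without the lysate block for footprints relative to RNA, and filled points have an edgeR adjusted p under 0.05. Anxa3 and Anxa2 are filled in RNA and footprints and Anxa11 in footprints, and every interval for footprints relative to RNA includes 0.

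The other 5 annexins were not called in either assay. Anxa7 (chromosome 14, 20455261 to 20480133), which binds the calcium sensor sorcin and promotes membrane fusion in vitro, lay lower in knockdown RNA without passing the test. Anxa7 RNA was at 109, 115 and 116 CPM in siKrr1 A, C and D, against 120, 130 and 137 CPM in siGFP, siNC and Lipo. The knockdown libraries thus lay below all controls, as 13.4% of tested genes did, with a log2 fold change of -0.18 ± 0.07 (SE; unadjusted p = 0.0311 by edgeR, edgeR adjusted p = 0.185). In footprints the groups overlapped, at 130, 136 and 148 CPM in siKrr1 A, C and D, against 139, 148 and 147 CPM in siGFP, siNC and Lipo, and the log2 fold change was -0.07 ± 0.06 (edgeR adjusted p = 0.579).

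Anxa1 and Anxa6 stood out in a single knockdown lysate, the same one in both assays. Anxa1 (chromosome 19, 20373434 to 20390671), a glucocorticoid-induced ligand of formyl peptide receptors, had RNA at 18.7, 18.4 and 31.5 CPM in siKrr1 A, C and D, against 19.5, 15.1 and 20.8 CPM in siGFP, siNC and Lipo. Its footprints were at 34.6, 41.5 and 63.4 CPM in siKrr1 A, C and D, against 48.8, 39.1 and 40.2 CPM in siGFP, siNC and Lipo. Only siKrr1 D was above all controls, at 170% of the control mean in RNA and 148% in footprints. The log2 fold change of Anxa1 was 0.31 ± 0.20 (SE) in RNA and 0.13 ± 0.18 in footprints (edgeR adjusted p = 0.418 and 0.729), and without siKrr1 D it was 0.01 and -0.16.

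Anxa6 (chromosome 11, 54978953 to 55033471), an annexin with an enlarged core that acts on endosomes and their cholesterol, was high in siKrr1 A instead. Its RNA was at 145, 97.3 and 97.7 CPM in siKrr1 A, C and D, against 101, 103 and 103 CPM in siGFP, siNC and Lipo. The footprints of Anxa6 were at 153, 103 and 114 CPM in siKrr1 A, C and D, against 113, 106 and 111 CPM in siGFP, siNC and Lipo. The siKrr1 A level was 142% of the control mean in RNA and 139% in footprints, while siKrr1 C and D were at 95% and 95.4% in RNA and at 94% and 104% in footprints. Over the group its RNA stood at 0.15 ± 0.13 (log2 fold change, SE) and its footprints at 0.17 ± 0.12 (edgeR adjusted p = 0.589 and 0.448), and without siKrr1 A they stood at -0.07 and -0.02. The RefSeq table places Gm19911 over Anxa6, Mir7009 over Anxa5 and Mir3109 over Anxa2. Mir3109 had 0 counts and the other pair has no row, and since the strand setting is not known, reads from overlapping genes cannot be told apart.

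Anxa4 and Anxa5 were lowest in siKrr1 C in both assays. Anxa4 (chromosome 6, 86736840 to 86793634), an annexin of epithelial membranes, had RNA at 55.3, 42.8 and 47.6 CPM in siKrr1 A, C and D, against 56.1, 51.8 and 52.1 CPM in siGFP, siNC and Lipo. Anxa4 footprints were at 77.6, 64 and 68.7 CPM in siKrr1 A, C and D, against 84.9, 71.2 and 73.8 CPM in siGFP, siNC and Lipo. The groups overlapped in both assays. Its RNA stood at -0.14 ± 0.10 (log2 fold change, SE) and its footprints at -0.13 ± 0.09 (edgeR adjusted p = 0.483 and 0.443). Anxa5 (chromosome 3, 36448923 to 36475887) had RNA at 17.9, 15.6 and 20.2 CPM in siKrr1 A, C and D, against 19.9, 17.7 and 21.3 CPM in siGFP, siNC and Lipo. Its footprints were at 27.9, 23.5 and 32.7 CPM in siKrr1 A, C and D, against 36.7, 31.3 and 29.4 CPM in siGFP, siNC and Lipo. The groups overlapped, with a log2 fold change of -0.13 ± 0.12 (SE) in RNA and -0.21 ± 0.12 in footprints (edgeR adjusted p = 0.587 and 0.357). The 95% interval of Anxa5 in footprints ran from -0.48 to 0.06.

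**Figure D3:**
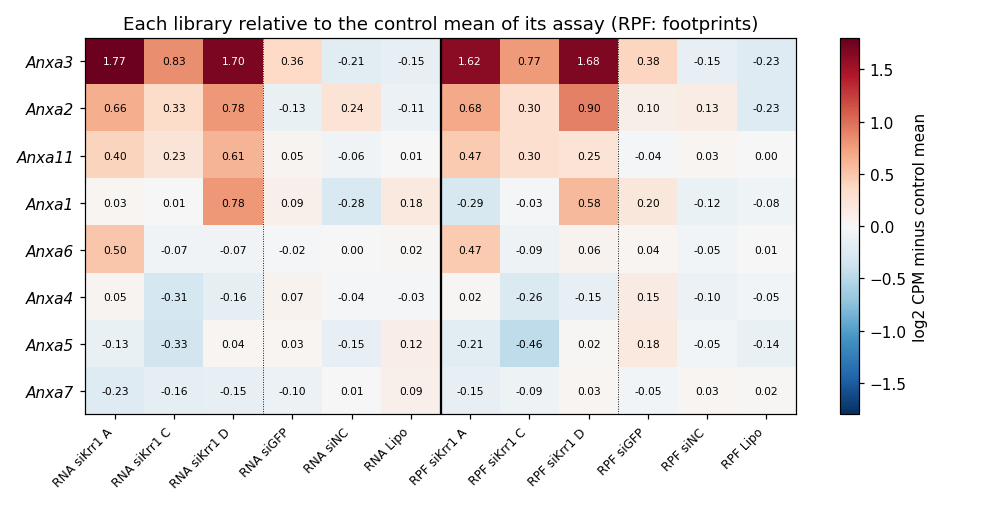
Log2 CPM of each annexin in each library minus the control mean of the same assay (colour and printed value); columns are libraries, RNA left and footprints (RPF) right of the solid line, siKrr1 before control. The raised values of Anxa1 sit in siKrr1 D (0.78 in RNA, 0.58 in footprints) and those of Anxa6 in siKrr1 A (0.50 and 0.47), while Anxa3 is at 0.77 or more in every siKrr1 column.

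The 3 knockdown lysates therefore carried different annexin profiles. Krr1 RNA and footprints were lowest in siKrr1 A. Anxa2 was highest in siKrr1 D and Anxa6 in siKrr1 A, each in both assays. Anxa3 was highest in siKrr1 A in RNA and in siKrr1 D in footprints. Whether these levels follow the depth of the knockdown was not tested. Relative to the control mean, Anxa2 RNA reached 157%, 125% and 171% in siKrr1 A, C and D, and Anxa3 RNA reached 337%, 175% and 321%. The siKrr1 C lysate gave the lowest knockdown value for Anxa2 and Anxa3 in both assays. With 1 lysate per siRNA, the siRNA and the lysate cannot be told apart.

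The next comparison asked whether ribosome occupancy changed beyond the RNA, as the interaction of assay and condition in 1 edgeR model over the 12 libraries. None of the 8 annexins was called, and none had an unadjusted p under 0.05 or was called by DESeq2. Over 14236 genes this model called 0% (337 genes, 2.37%, had an unadjusted p under 0.05). The annexin log2 differences ran from -0.19 ± 0.31 (SE) for Anxa1 to 0.11 ± 0.10 for Anxa7. Their 95% intervals in that model ran from -0.85 to 0.69 for Anxa3 and from -0.09 to 0.32 for Anxa7. Since both assays came from the same lysates, the model with the lysate as a block compares them within each lysate, and it called 5 genes higher and 1 lower, 0 of them annexins. In the blocked model the interval of Anxa3 ran from -0.27 to 0.11, that of Anxa7 from -0.03 to 0.25 and that of Anxa1 from -0.44 to 0.05, and each of the 8 included 0. For Anxa7 the ratio of footprint CPM to RNA CPM was 1.19, 1.18 and 1.28 in siKrr1 A, C and D, against 1.16, 1.14 and 1.07 in siGFP, siNC and Lipo. These groups did not overlap, with an exact two-sided permutation p = 0.1, the smallest that 3 lysates against 3 can give. Of the 8 annexins Anxa7 was the 1 without overlap, beside 13.2% of 9252 genes with at least 5 CPM in both assays (7.07% with all knockdown lysates above all controls).

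The ratio of footprints to RNA set Anxa11 apart from the other annexins in every lysate. It was 10.4, 10.4 and 7.7 in siKrr1 A, C and D, and 9.36, 10.6 and 9.84 in siGFP, siNC and Lipo. In controls its mean was 9.93 ± 0.616 (SD, n = 3). The ratio of its control means, 9.91, lay at the 99.8th percentile of the same 9252 genes, whose median was 0.889. Only 18 of those genes (0.195%), Anxa11 included, reached that ratio. The control RNA of Anxa11, 5.59 CPM on average, lay just above the cut of 5 CPM that these genes had to pass. The other 7 annexins had control ratios from 1.07 ± 0.0442 (Anxa6) to 2.34 ± 0.354 (Anxa1; SD, n = 3 each), all above that median. The ratio compares 2 libraries of different fragment length on the same gene, and the cause of the Anxa11 value was not tested. No other gene of the RefSeq table overlaps Anxa11.

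**Figure D4:**
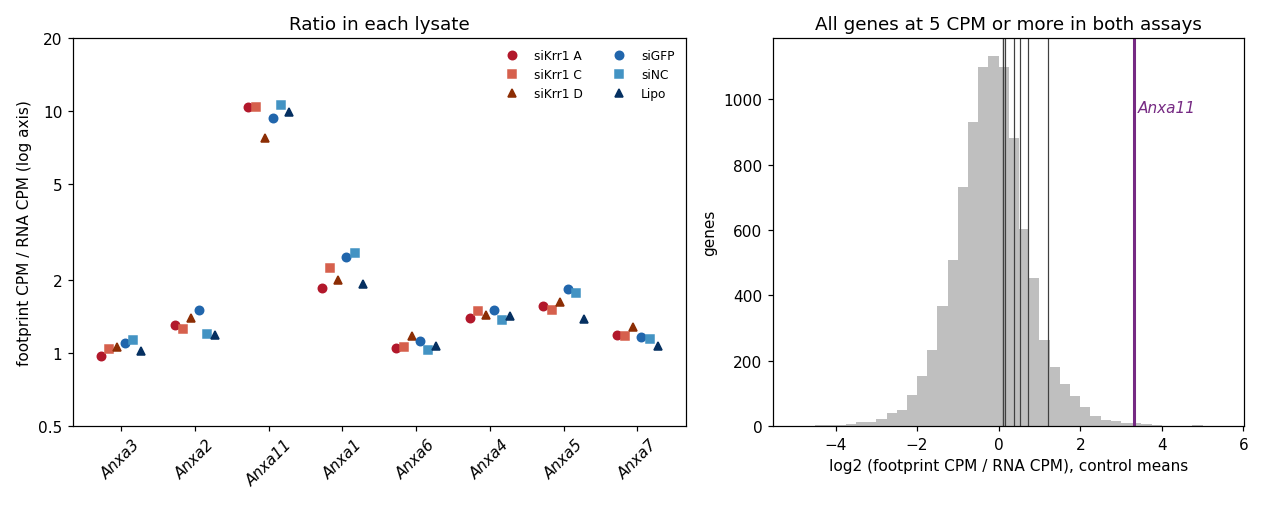
Left, ratio of footprint CPM to RNA CPM for each annexin in each lysate, on a log axis; right, number of genes by the log2 ratio of control means, for genes with at least 5 CPM in both assays, with a line for each annexin. Anxa11 lies at 7.7 to 10.6 in the 6 lysates, while the other annexins have control means of 1.07 to 2.34.

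Among binding partners of the annexins, S100a6 alone was called. Of 12 binding partners, 1 of 7 tested rose in RNA and 1 of 8 in footprints, and 0 fell (median log2 fold change 0.05 and 0.02), beside 2.69% and 3.39% of all genes higher and 2.11% and 2.68% lower. This list was written with earlier results of these data known, so the counts do not test it. S100a6, which binds Anxa11, was at 49.2, 54.2 and 72.4 CPM of RNA in siKrr1 A, C and D, against 44, 34.6 and 36.3 CPM in siGFP, siNC and Lipo. It rose by 0.62 ± 0.14 (SE, log2) in RNA (edgeR adjusted p = 0.0327) and 0.69 ± 0.15 in footprints (edgeR adjusted p = 0.0226). The RNA call was lost without siKrr1 D (edgeR adjusted p = 0.0694), siGFP (0.072), siNC (0.125) or Lipo (0.13), and the footprint call without siNC (0.099) or Lipo (0.115). S100a10, the partner of Anxa2, was at 553, 543 and 611 CPM of RNA in siKrr1 A, C and D, against 480, 553 and 565 CPM in siGFP, siNC and Lipo. Its groups overlapped, with a log2 fold change of 0.09 ± 0.08 in RNA and 0.06 ± 0.05 in footprints (edgeR adjusted p = 0.568 and 0.554), and it was chosen after its values were seen. The formyl peptide receptor Fpr2 had 0 counts in all libraries of both assays. The remaining 2 tested annexins, Anxa8 and Anxa10, were at -0.52 ± 0.27 and -0.27 ± 0.36 (log2, SE) in RNA (edgeR adjusted p = 0.301 and 0.729). In footprints they were at -0.46 ± 0.21 and -0.72 ± 0.56 (edgeR adjusted p = 0.229 and 0.5). These values rest on few reads per library, 58 to 154 in RNA and 42 to 78 in footprints for Anxa8. For Anxa10 there were 14 to 27 in RNA and 6 to 30 in footprints. Anxa8 footprints lay below all controls, as did those of 13.6% of tested genes. Anxa9 and Anxa13 did not pass the filter.

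In the plasminogen system, which meets Anxa2 at the cell surface, 2 of 6 tested genes rose in both RNA and footprints and 0 fell. Over all genes, 2.69% were higher in RNA and 3.39% in footprints, and 2.11% and 2.68% were lower. Plg, the plasminogen gene itself, Serpinb2 and Serpinf2 did not pass the filter on low counts in either assay. The list is short and was written with earlier results known, so these counts are not read as a result about the system. The genes that rose were Plaur, the urokinase receptor, and Serpine2, an inhibitor of urokinase and thrombin. Plaur RNA was at 87.3, 63.2 and 106 CPM in siKrr1 A, C and D, against 58.7, 50.4 and 50.6 CPM in siGFP, siNC and Lipo (log2 fold change 0.68 ± 0.15 SE, edgeR adjusted p = 0.0301). Serpine2 RNA was at 42.9, 14 and 22.1 CPM in siKrr1 A, C and D, against 12.2, 10.2 and 9.16 CPM in siGFP, siNC and Lipo (1.32 ± 0.31, edgeR adjusted p = 0.0377). In both genes siKrr1 C was closest to the controls. The median of the list was 0.58 in RNA and 0.55 in footprints. The 2 RNA calls were lost without any single lysate other than siKrr1 C, with edgeR adjusted p of 0.0779 to 0.118 for Plaur and 0.0674 to 0.134 for Serpine2, whose log2 fold change was 0.78 without siKrr1 A. In footprints the Plaur call was likewise lost without any lysate other than siKrr1 C (edgeR adjusted p of 0.0515 to 0.137). The Serpine2 call in footprints was lost without siGFP (edgeR adjusted p = 0.086), siNC (0.0899) or Lipo (0.123), and its log2 fold change there was 1.40 ± 0.31 with all lysates and 0.86 without siKrr1 A.

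Some copines, another family of calcium-dependent phospholipid-binding proteins, were higher. Of 8 tested copines, 2 rose in RNA and 3 in footprints (median log2 fold change 0.22 and 0.33), beside 2.69% and 3.39% of all genes higher. In all, 0 were called lower, beside 2.11% and 2.68% of all genes. Cpne4 and Cpne5 lay below 0 without a call, at -0.72 and -0.54 in RNA and -0.56 and -0.48 in footprints. Cpne7, Cpne8 and Cpne9 lay above 0 without a call. The list is short and was written with earlier results known, so these counts are not read as a result about copines. Cpne2 footprints were at 10.2, 6.41 and 9.31 CPM in siKrr1 A, C and D, against 3.49, 2.99 and 3.26 CPM in siGFP, siNC and Lipo, a log2 fold change of 1.42 ± 0.19 (SE; edgeR adjusted p = 0.00328) that was called with each lysate left out. Cpne2 RNA was at 1.25 ± 0.25 (edgeR adjusted p = 0.0203), a call that was lost without any lysate other than siKrr1 C (edgeR adjusted p of 0.0581 to 0.0888). Cpne1 rose by 0.51 ± 0.09 in RNA and 0.56 ± 0.10 in footprints (edgeR adjusted p = 0.0123 and 0.0109). These Cpne1 calls were lost without siGFP (edgeR adjusted p = 0.0699 and 0.0716) or Lipo (0.0648 and 0.0672). Cpne3 rose in footprints by 0.29 ± 0.07 (edgeR adjusted p = 0.0303), a call lost without siKrr1 D, siGFP, siNC or Lipo (0.0756, 0.08, 0.131 and 0.15), and was at 0.17 ± 0.11 in RNA (edgeR adjusted p = 0.444).

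Genes of plasma membrane repair and of phosphatidylserine display were called at 1 of 16 and 2 of 13 in RNA and at 2 of 16 and 1 of 13 in footprints, beside 4.8% and 6.07% of all genes, and at these list sizes the counts are not read as results about the lists. Among the repair genes, Capn1, a calcium-activated protease, fell by 0.40 ± 0.09 (log2, SE) in RNA and by 0.30 ± 0.08 in footprints (edgeR adjusted p = 0.0281 and 0.0466). Chmp4c, an ESCRT-III subunit, fell by 0.42 ± 0.11 in footprints (edgeR adjusted p = 0.0458), and 0 repair genes rose (median log2 fold change -0.04 in RNA and -0.02 in footprints). Of 13 phosphatidylserine genes, 1 rose and 1 fell in RNA, and 0 rose and 1 fell in footprints. Mfge8, a secreted protein that bridges phosphatidylserine to integrins, was at 0.37 ± 0.09 in RNA (edgeR adjusted p = 0.0384) and 0.32 ± 0.09 in footprints (edgeR adjusted p = 0.0633). Bai1, a phosphatidylserine receptor of engulfing cells, fell by 0.66 ± 0.14 in RNA and by 0.64 ± 0.16 in footprints (edgeR adjusted p = 0.0249 and 0.0411). None of these calls held with each lysate left out, but the log2 fold changes kept their sign. They ran from -0.44 to -0.35 in RNA and -0.33 to -0.24 in footprints for Capn1, and from -0.57 to -0.34 in footprints for Chmp4c. Mfge8 ran from 0.28 to 0.46 in RNA, and Bai1 from -0.73 to -0.55 in RNA and -0.74 to -0.48 in footprints. Over all genes, 63 to 78 were called higher in RNA without 1 control, against 378 with all lysates. The RNA calls of Capn1 and Mfge8 and the footprint calls of Chmp4c and Bai1 were kept without siKrr1 C, and were lost without any other lysate (edgeR adjusted p of 0.0513 to 0.144, 0.0698 to 0.161, 0.0803 to 0.16 and 0.0535 to 0.181). The footprint call of Capn1 was kept without siKrr1 A alone (otherwise 0.0685 to 0.186). That of Bai1 in RNA was lost without siKrr1 A, siGFP, siNC or Lipo (0.0573, 0.0984, 0.122 and 0.0745).

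**Figure D5:**
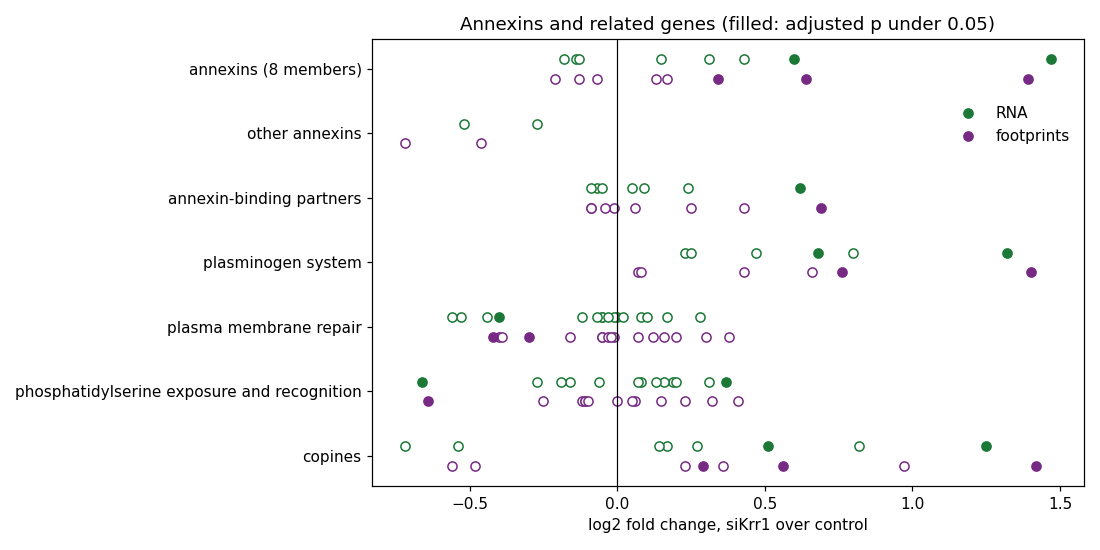
Log2 fold change of siKrr1 over control (horizontal axis) for every tested gene of 7 groups, in RNA (green) and footprints (purple); filled points have an edgeR adjusted p under 0.05. Anxa3 at 1.47, Serpine2 at 1.32 and Cpne2 at 1.25 in RNA lie farthest to the right of 0.

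The genes most like each annexin that rose were found by the root mean square difference of their log2 profile, relative to the control mean, over the 12 libraries and among 9272 genes with at least 5 CPM in both assays. For Anxa3 these were Cldn6, a tight-junction protein, at 0.17, Lpar6, a lysophosphatidic acid receptor, at 0.18 and the kinase Plk2 at 0.20. They were called higher in both assays, with log2 fold changes of 1.34, 1.47 and 1.17 in RNA. For Anxa2 they were the chloride channel protein Clic1 at 0.09, the collagen chaperone Serpinh1 at 0.12 and the collagen lysyl hydroxylase Plod2 at 0.12, with log2 fold changes of 0.62, 0.74 and 0.60 in RNA. For Anxa11 they were the kinase Cdk17 at 0.07, the dystrophin gene Dmd at 0.07 and the focal adhesion adaptor Lims1 at 0.08, with log2 fold changes of 0.39, 0.33 and 0.38 in RNA. All of these genes were chosen for their likeness over the same libraries, so fold changes near those of the annexin follow from the choice. These likenesses are descriptions over libraries that share controls and depth. Over the 6 RNA libraries alone, 2 of the 3 genes were the same for Anxa3, 1 for Anxa2 and 0 for Anxa11.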

How the data were processed

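Per the labels, each R1 embryonic stem cell lysate gave an RNA-seq library from 40 to 60 nt fragments and a footprint library from pieces near 30 nt, read from 1 end. The authors deposited raw counts per gene symbol. STAR and HTSeq with mm10 are named in the submitters' processing notes. Versions, annotation and strand setting are not given in the sources here. Reads on no gene (31.2% to 33.4% of unique alignments in RNA, 57.5% to 63.3% in footprints) or on more than 1 gene (at most 0.206%) entered neither library sizes nor tests. Knockdown columns carry letters and the titles numbers, so columns were assigned to groups.

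Tests across genes used edgeR's quasi-likelihood method (edgeR 4.0.16, R 4.3.3; TMM, filterByExpr, Benjamini-Hochberg over all genes tested), and DESeq2 1.42.0 was an alternative, with other scaling, no filter, 1 fit over 12 libraries and each lysate left out. Intervals are 95% from the edgeR standard error. Biological variation (the coefficient edgeR estimates) came to 11% for RNA and 9.3% for footprints. The test was checked on simulated counts, with the same variation for every gene and no effect shared by the assays of a lysate. Of genes changed by 1 or 2 (log2), 99% to 100% were recovered. Smaller changes, such as those of Anxa2 and Anxa11, were not simulated. No 2 libraries of a group and assay were duplicates (chi-square per degree of freedom 4.03 to 28.7). Deviations from the group mean of 6117 genes correlated between the assays of a lysate (r 0.265 to 0.713), and the labels state that lysates were divided, so the lysate pairs the assays.

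The annexins, lists and tests were chosen with earlier results of these data known. The naming rule takes all annexins, Krr1, up to 4 called genes per list (or the 2 most abundant) and the 3 most similar genes per annexin called. Of 23420 symbols, 23284 matched the RefSeq table. Lengths were not used here, so levels were not compared between annexins.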

Additional observations from a re-analysis of the deposited data

How the results depend on the processing

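Leaving out 1 lysate at a time gave 1 to 2 annexins higher in RNA (2 with all lysates) and 0 to 3 higher in footprints (3 with all), and none lower. The footprint count was 0 without Lipo and 1 without siGFP or siNC. Over all genes, 63 to 759 were then higher and 51 to 539 lower in RNA (378 and 296 with all), 67 to 791 higher and 64 to 546 lower in footprints (450 and 356 with all), and 0 to 1 higher in translational efficiency. The fewest were called without Lipo and the most without siKrr1 C in RNA and footprints. DESeq2 called 662 higher and 533 lower in RNA and 2 higher in translational efficiency. Without a filter on low counts edgeR called 582 higher and 477 lower in RNA, 784 higher and 616 lower in footprints and 2 higher in translational efficiency. With the lysate as replicate block, 5 genes were higher and 1 lower in translational efficiency, and the annexin calls did not change: the log2 difference was -0.08 for Anxa3, 0.03 for Anxa2 and -0.09 for Anxa11. The sign turned within the single-lysate ranges for Anxa6 (-0.07 to 0.25 in RNA, -0.02 to 0.28 in footprints) and Anxa1 (-0.16 to 0.30 in footprints). It also turned in translational efficiency for Anxa2 (-0.03 to 0.14), Anxa4 (-0.03 to 0.04), Anxa6 (-0.02 to 0.05) and Anxa11 (-0.17 to 0.07), none of them called in any fit. Over RNA libraries alone 1 of 3 similar genes was shared for Anxa2 and 0 for Anxa11. Beyond the lysates left out, the only annexin call that changed was Anxa11 in RNA, called in 1 fit over all 12 libraries. The causes were not tested. Footprint density per coding length was not run, as lengths were not used here. Anxa11 had the fewest RNA reads of the 8, at 200 to 325 per library.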

Other observations

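S100a11, the small calcium-binding partner of Anxa1, was outside the RNA comparison because it did not pass the filter on low counts, and it is described here after its values were seen. It had 5, 12 and 4 RNA reads in siKrr1 A, C and D and 6, 8 and 9 in siGFP, siNC and Lipo. The same gene had 87, 111 and 128 footprint reads in siKrr1 A, C and D and 123, 87 and 110 in siGFP, siNC and Lipo. Its footprint level did not differ beyond the spread between lysates (log2 fold change -0.01 ± 0.21 SE, edgeR adjusted p = 0.98). In controls its ratio of footprint CPM to RNA CPM was 22.8 ± 11 (SD, n = 3), above the 9.93 ± 0.616 of Anxa11, whereas the partners S100a6 and S100a10 had ratios of 1.52 ± 0.0393 and 0.7 ± 0.045. The cause of these ratios was not tested, and the S100a11 ratio rests on few RNA reads.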
